A study of Mus musculus with 15 samples.

Results

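The genes described here encode chromatin remodellers, which move or evict nucleosomes, and the enzymes and readers of histone and DNA marks. They were taken by symbol, from the families Smarc, Arid, Chd, Ino80, Brd, Kdm, Kat, Kmt, Setd, Hdac, Sirt, Ezh, Dnmt, Tet and Ing, with Arid1a and Arid1b left out, wherever a peak of open chromatin was annotated to one of them. The rule itself uses names and no measured value, but it was chosen with earlier results of these data known. In all, 71 genes of the 10268 with a listed peak were members, out of 133 RefSeq gene symbols that fit the same name patterns. They held 58 of 7826 peaks in the comparison of genotypes before pancreatectomy, 83 of 13111 in the comparison after it, 58 of 8070 in the comparison of control islets across the operation and 84 of 12767 in that of KO-labelled islets. Together these peaks fell at 89 sites, of which 53 were listed in all 4 tables. The name patterns also caught Smarce1-ps1, a pseudogene by its name, and Ino80dos, a transcript opposite to Ino80d by its name.

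Remodellers of the SWI/SNF, ISWI, CHD and INO80 groups spend ATP to shift nucleosomes, while acetyltransferases, methyltransferases and DNA methyltransferases write marks and deacetylases, demethylases and TET enzymes remove or oxidise them. ARID, ING and bromodomain proteins bring such machines to DNA or to marked histones. In islets these factors help keep the beta cell program, and the SWI/SNF complex works with the beta cell transcription factor Pdx1.

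Accessible DNA was profiled by ATAC-seq, which uses the Tn5 transposase to insert adapters where nucleosomes leave room. All mice were males of 3 months with floxed Arid1a alleles (Arid1aFl/Fl) and MIP-rtTA, in which the mouse insulin promoter drives a doxycycline-dependent activator. The KO-labelled mice (Arid1a βKO) also carried TRE-Cre, so that doxycycline turns on Cre in beta cells and other islet cells keep their Arid1a. Every group drank doxycycline at 1 g/L for 2 weeks, and partial pancreatectomy (PPx), which removes part of the pancreas and prompts the rest to regrow, followed 1 week after withdrawal in the operated mice. Each of the 15 libraries came from 40000 islet cells of a mouse: before PPx there were 4 control and 3 KO-labelled mice, and 6 days after PPx 4 of either genotype. Cells of all islet types were used together, and in such mixed samples fewer cells of a type and less signal per cell cannot be told apart.

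The promoters of the member genes whose peak gained signal in KO-labelled islets after PPx are shown here as a description. Of the 71 genes, 59 were found in the RefSeq promoter table, and Chd1 was not. For 7 of the called genes the 250 bases before the RefSeq start lay wholly inside the called peak. They are given from 5′ to 3′ on the gene's strand, in GRCm38.p6, the assembly called mm10. Capitals mark matches on either strand to CCGGAAG (ETS factors), CCAAT (NF-Y), GGGCGGG (SP and KLF factors) and CACGTG (an E-box).
Smarca5, chr8:80739460-80739709, minus strand: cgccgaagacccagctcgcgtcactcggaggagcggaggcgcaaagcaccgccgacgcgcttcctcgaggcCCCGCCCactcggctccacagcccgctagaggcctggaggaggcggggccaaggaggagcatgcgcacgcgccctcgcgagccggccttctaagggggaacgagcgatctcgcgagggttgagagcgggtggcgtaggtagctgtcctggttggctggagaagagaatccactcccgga
Smarcal1, chr1:72583001-72583250, plus strand: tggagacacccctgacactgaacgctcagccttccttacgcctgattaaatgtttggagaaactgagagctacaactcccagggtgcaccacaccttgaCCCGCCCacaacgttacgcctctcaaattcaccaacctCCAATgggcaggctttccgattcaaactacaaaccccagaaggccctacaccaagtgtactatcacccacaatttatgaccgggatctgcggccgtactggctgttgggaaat
Arid4b, chr13:14063534-14063783, plus strand: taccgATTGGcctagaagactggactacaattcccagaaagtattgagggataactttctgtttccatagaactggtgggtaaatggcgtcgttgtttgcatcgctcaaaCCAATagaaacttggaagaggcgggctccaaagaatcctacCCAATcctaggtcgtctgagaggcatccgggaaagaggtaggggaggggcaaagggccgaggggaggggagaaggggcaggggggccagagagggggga
Hdac4, chr1:92180342-92180591, minus strand: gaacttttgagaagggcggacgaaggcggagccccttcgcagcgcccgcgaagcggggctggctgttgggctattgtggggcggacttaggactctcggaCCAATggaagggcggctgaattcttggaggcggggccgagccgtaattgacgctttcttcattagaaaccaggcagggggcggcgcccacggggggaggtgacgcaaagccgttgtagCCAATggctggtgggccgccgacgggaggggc
Setd6, chr8:95715663-95715912, plus strand: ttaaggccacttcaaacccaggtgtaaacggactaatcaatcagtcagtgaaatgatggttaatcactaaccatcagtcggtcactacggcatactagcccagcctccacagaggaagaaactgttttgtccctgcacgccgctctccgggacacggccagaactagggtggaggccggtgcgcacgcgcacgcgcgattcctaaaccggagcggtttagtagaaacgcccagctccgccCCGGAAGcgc
Kdm4d, chr9:14500483-14500732, minus strand: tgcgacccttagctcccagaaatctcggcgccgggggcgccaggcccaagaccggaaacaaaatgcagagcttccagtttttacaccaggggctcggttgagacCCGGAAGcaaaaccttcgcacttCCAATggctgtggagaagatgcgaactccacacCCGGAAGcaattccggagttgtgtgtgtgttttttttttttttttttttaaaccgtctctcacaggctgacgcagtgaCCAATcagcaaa
Kdm6a, chrX:18162325-18162574, plus strand: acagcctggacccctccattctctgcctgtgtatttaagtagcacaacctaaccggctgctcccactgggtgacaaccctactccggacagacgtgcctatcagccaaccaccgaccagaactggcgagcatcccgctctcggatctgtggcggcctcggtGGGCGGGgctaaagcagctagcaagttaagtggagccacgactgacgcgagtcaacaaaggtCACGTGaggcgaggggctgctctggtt
Setd6 and Kdm4d carried the ETS letters, Arid4b, Hdac4, Kdm4d and Smarcal1 the NF-Y letters, and Smarca5, Smarcal1 and Kdm6a the SP and KLF letters, with an E-box in Kdm6a. Kdm4d held 2 copies of the ETS letters, and the Arid4b window held 3 of the NF-Y letters on the 2 strands.

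Shares were taken over the 40 member promoters where a peak annotated as promoter in the comparison after PPx overlapped these 250 bases. The Hdac4 window is not among the 40, because its peak is annotated as distal. The ETS letters were found in 9, or 22.5%. The share was 15.2% among 6718 promoters with a listed peak and 7.05% among all 27025 promoters. NF-Y letters were present in 22 of the 40 (55%), beside 42.0% and 34.5%. SP and KLF letters were in 18 (45%), beside 48.2% and 23.6%. The letters of NRF1 (GCGCATGCG) were in 1 of the 40 member windows, those of YY1 (AAGATGGCG) in 0, and those of a CRE (TGACGTCA), an E-box and AP-1 (TGANTCA) in 2 each. The shares among promoters with a listed peak were 3.35% for NRF1, 1.30% for YY1, 3.23% for the CRE, 8.49% for the E-box and 3.19% for AP-1. Member windows had a median GC content of 63.6% and 21 CpG pairs, against 61.6% and 18 in promoters with a listed peak and 52% and 6 in all promoters. These shares describe letters in a window and carry no test.

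Most member peaks were promoters. The authors' annotation calls a peak a promoter within 3 kb of a transcript start, and 63 of the 83 member peaks (75.9%) after PPx had that class, against 61.4% of all peaks in that table. The centres of the member promoter peaks lay at a median of -82.5 bp from the RefSeq start in that table, where negative is upstream. The start itself was inside the peak for 37 of the 54 peaks that could be matched. Several of these promoters are shared. In 7 of the 63 promoter peaks the start of another protein-coding gene also lay inside the peak: Ggps1 beside Arid4b, Trip13 beside Brd9, Tpmt beside Kdm1b, Cwc15 beside Kdm4d, Ccdc77 beside Kdm5a, Ccnk beside Setd3 and Cab39l beside Setdb2. The signal of such a peak cannot be assigned to a single gene. The Hdac4 peak that was called is annotated as distal, yet its centre lay at -199 bp from the RefSeq start of Hdac4. Other peaks are classed as promoters yet lie far from the RefSeq start of their gene. In the comparison of PPx in KO-labelled islets the centres lay at 21850 bp for Tet1, -5370 bp for Smarcd2 and 25096 bp for a second Arid4b peak.

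Values of single libraries, and so their depth and spread, were not analysed here, because each deposited table gives a mean per group on the log2 scale of normalised reads, in windows of 601 bp. The standard error (SE) given with a fold was computed from that fold and the deposited p-value and assumes a normal test statistic. A table's median peak held 13.7 to 16.2 normalised reads. The targeted gene had a single listed peak, in Arid1a exon 9, and in the authors' deposited tables it was higher under the KO label, at 1.21 in controls and 5.49 in KO-labelled islets before PPx (FDR 0.00187) and at 0.40 and 4.04 after PPx (FDR 0.00201). Which exon is floxed is not stated in the labels, so that peak checks neither the deletion nor the group names. Of 10 beta cell markers, 6 had a peak after PPx, among them Ins1, Nkx6-1 and Mafa. Of their 12 peaks 2 were called gained in KO-labelled islets after PPx (lowest FDR 0.0154), or 16.7%, beside 9.89% of all peaks. No peak was listed for markers of acinar or Schwann cells. Markers of the other lists (alpha, delta and PP, ductal, endothelial, stellate and leukocyte) had 1 to 5 peaks each, with median levels of 2.95 to 4.20 in controls and 3.10 to 5.32 in KO-labelled islets after PPx. A distal peak of Sst was called among them, at 4.20 and 5.32 (FDR 0.0294), and the part of other cell types in the results was not tested.

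All peaks have the same width, so their levels can be compared between genes. In the authors' deposited table of genotype before PPx, the promoter of Arid4b, a subunit of the SIN3 deacetylase complex, stood at 6.57 in controls and 6.86 in KO-labelled islets. Next by the control level came Kmt5c, which trimethylates histone H4, at 6.30 and 6.04, and Ing3, a reader in the NuA4 acetyltransferase complex, at 6.18 and 6.52. Kdm4b, a histone H3 demethylase, followed at 5.82 and 6.11, and the deacetylase Hdac2 at 5.57 and 5.71. By the mean over both groups Ing3 was above Kmt5c in this table. The same 5 genes led in all 4 tables by that mean, with Kmt5c and Ing3 changing places. Whether neighbours in this order differ beyond the spread of libraries cannot be read from group means. The median of the member peaks was 4.30 in controls and 3.91 in KO-labelled islets, beside 4.06 and 3.99 over all peaks. These medians were taken in each group apart, and the median of the member folds themselves was -0.09.

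**Figure D1:**
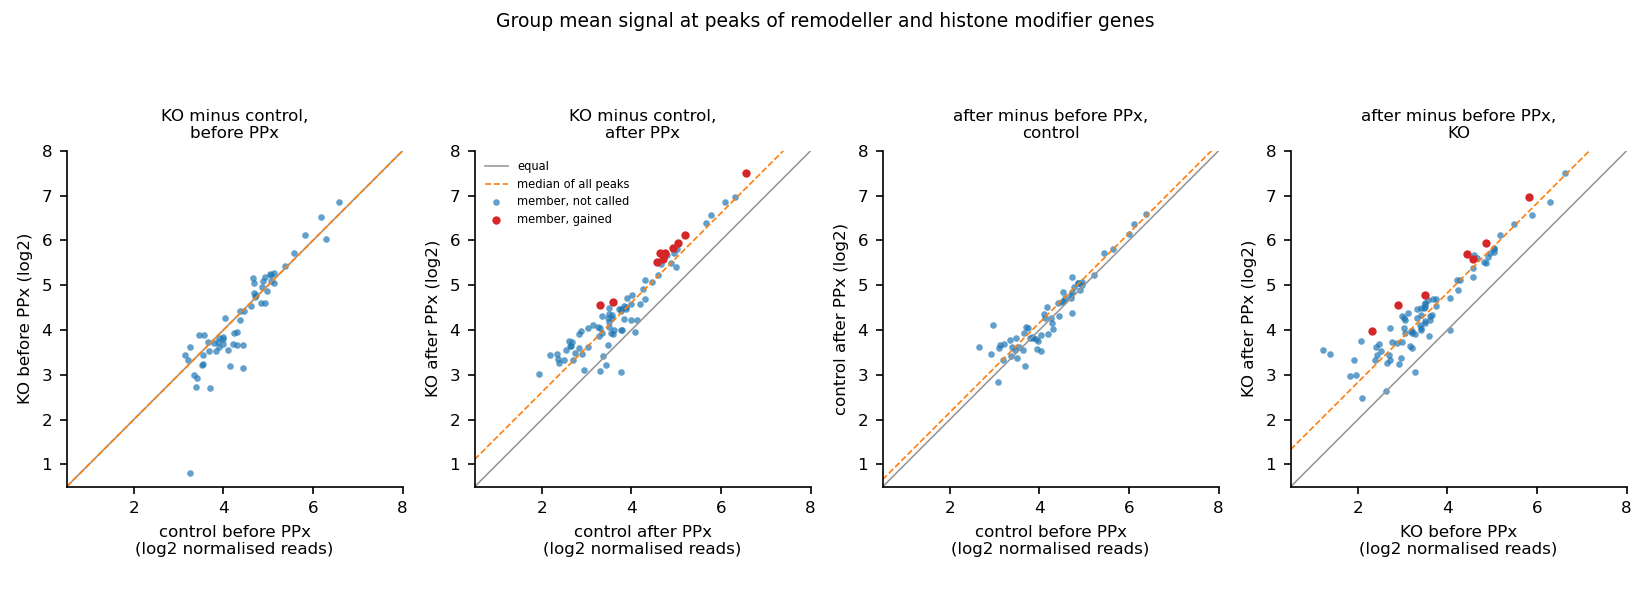
Mean log2 normalised reads of each member peak in the 2 groups of each comparison, with the first group on the x axis and the second on the y axis. Red points are peaks called gained at the authors' FDR of 0.05, the grey line is equality and the dashed line is shifted by the median fold of all peaks, which is 0.00, 0.61, 0.16 and 0.83 from left to right. In the 2 panels with KO-labelled islets after PPx most member points lie above the line of equality, 79 of 83 and 81 of 84.

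The comparison of genotypes before PPx asks what loss of Arid1a does to islet chromatin at rest. None of the 58 member peaks passed the authors' FDR of 0.05, and 0.0128% of all peaks did. The member folds, as KO-labelled minus control, had a median of -0.09 log2 units, beside 0.00 for all peaks and 0.04 for all promoter peaks. Of the 58, 25 were above 0. The unadjusted p was below 0.05 at 3 member peaks, 5.17% of them beside 3.14% of all peaks, and at each the value was lower under the KO label.

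These 3 peaks belonged to the CHD remodellers and the KDM demethylases. A distal peak annotated to Chd1l, a remodeller that acts at sites of DNA damage, stood in the authors' deposited table at 3.25 in controls and 0.81 in KO-labelled islets, a log2 fold of -2.44 (SE 0.81, p = 0.0027, FDR 1). The authors' peak caller found it in 2 of 4 libraries of controls and in 0 of 3 of the other group. The exon 24 peak of Chd7, a remodeller known for enhancer binding and for CHARGE syndrome, stood at 4.43 and 3.15 in the authors' deposited table, a fold of -1.28 (SE 0.44, p = 0.00361, FDR 1), and was found in 3 of 4 and 0 of 3. The promoter of Kdm5a, which removes methyl groups from histone H3 lysines at active promoters, stood at 4.15 and 3.20 in that deposited table, and by the authors' values the fold was -0.96 (SE 0.47, p = 0.0399, FDR 1). It was found in 4 of 4 and 0 of 3. Each listed peak was called in at least 2 libraries, so these 3 peaks were listed through control libraries alone. Their call counts therefore lend no support to the lower values.

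Within families of several peaks the member folds before PPx lay on both sides of 0, except the 3 INO80 peaks, at -0.28 to -0.11. The 10 CHD peaks ran from -2.44 to 0.48, the latter at the promoter of Chd1, which binds methylated histone H3 through its chromodomains. Chd7 had 4 peaks in this table and all were below 0, at -0.15 in the promoter, -0.77 in intron 1, -0.47 in exon 13 and -1.28 in exon 24. Of the 3 SWI/SNF peaks, Smarca4, the Brg1 ATPase, had 0.42, while Smarca2, its paralog Brm, had -0.30 and Brd9, a subunit of the non-canonical complex, had -0.31. The 10 KDM peaks ran from -0.96 at Kdm5a to 0.35 at Kdm6a, and the 5 deacetylase peaks from -0.30 to 0.33. An intron 4 peak of Arid5b stood at 3.69 and 2.71, a fold of -0.98 (SE 0.57). The 11 member peaks outside promoters had a median of -0.36, beside -0.12 for all peaks outside promoters.

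The comparison of genotypes after PPx asks what the same loss does while islets regrow. By the authors' FDR of 0.05, 11 of the 83 member peaks gained signal in KO-labelled islets and 0 lost it. That is 13.3% of the members, where 9.89% of all peaks were gained and 0.0839% lost. Among promoters alone the members gave 9 of 63, or 14.3%, and the whole table also 14.3% (1155 of 8050). The member count thus lies near its background, and the whole table is shifted the same way.

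The median fold was 0.75 for the members and 0.61 for all peaks, and 0.77 for member promoters beside 0.71 for all promoter peaks. Of the 83 members 79 were above 0, beside 90.3% of all peaks, and 40 had an unadjusted p below 0.05, all with the higher value in KO-labelled islets. These were 48.2% of the members, beside 33.6% of all peaks and 45.2% of all promoter peaks, and 4331 of the 4400 such peaks in the table were also higher. Of the 83 members 52 were called in more KO-labelled than control libraries and 0 in fewer, beside 8841 and 532 of all peaks. Some, such as those of Chd4, Setd2 and Tet1, were called in 0 of 4 control libraries. Such peaks were listed through KO-labelled libraries alone, where they stood higher, so the median and these counts are partly set by the listing. Once the median of peaks of the same promoter class and strength was subtracted, the members' median was 0.06, with 48 of 83 above 0. With each fold centred on the median of its table, 0 of the 83 members passed, and 52 of all 13111 peaks did. The deposited values do not show whether the table-wide offset lies in the chromatin or in how the libraries were scaled, and the 2 cannot be told apart here.

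**Figure D2:**
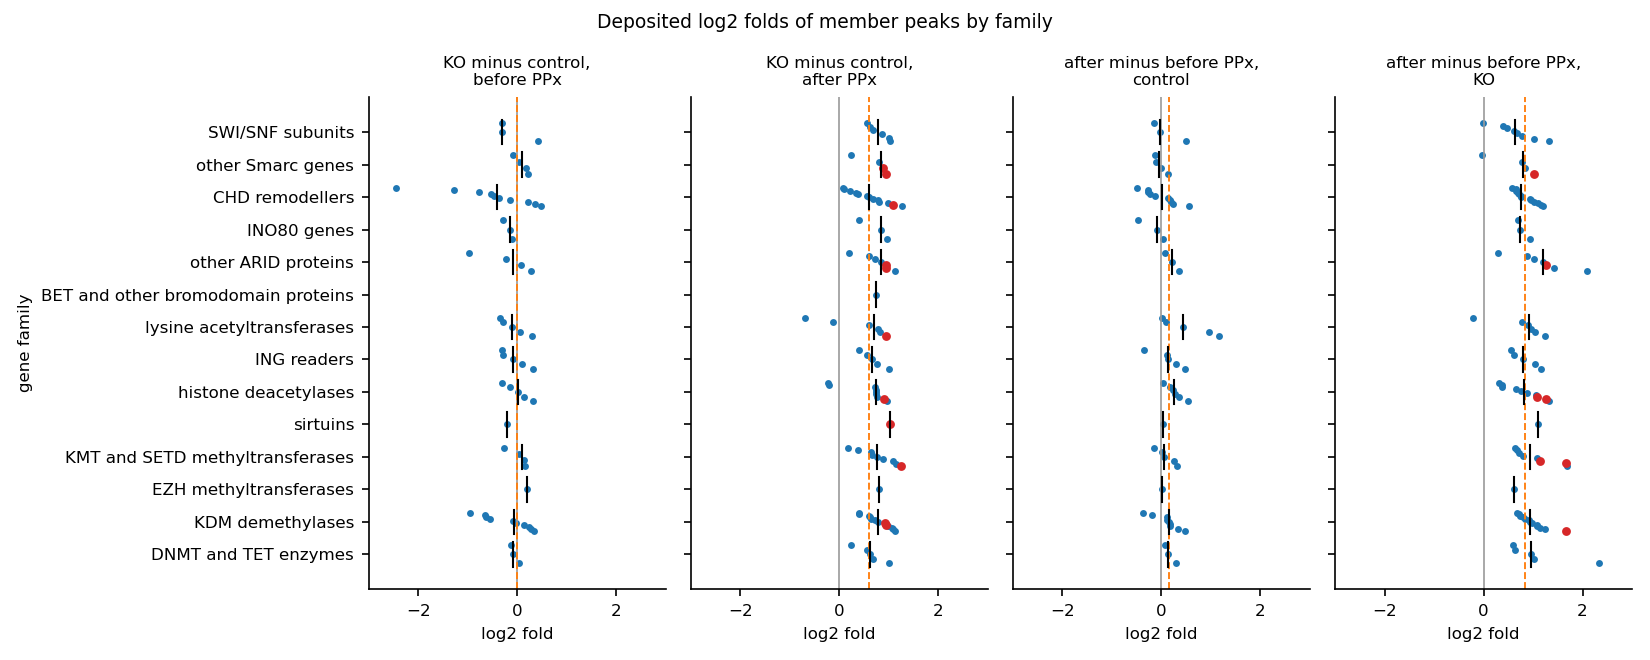
Log2 fold of every member peak in each comparison, by gene family. Each point is a peak, red where it was called gained at the authors' FDR of 0.05, the black tick is the family median and the dashed line is the median of all peaks of the table. After PPx the family medians of the second panel lie between 0.61 and 1.03.

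Among the remodellers 3 peaks were called after PPx, all at promoters; positions are those of the authors' peaks in mm10. Chd1 (chr17:15704353-15704953), at 4.64 in controls and 5.72 in KO-labelled islets, had the smallest FDR of all members in the authors' deposited table, with a fold of 1.08 (SE 0.33, FDR 0.0299). Smarca5 (chr8:80739371-80739971), the ISWI ATPase that spaces nucleosomes, stood at 4.73 and 5.68 there, a fold of 0.95 (SE 0.29, FDR 0.0306). Smarcal1 (chr1:72582899-72583499), a helicase that rewinds DNA at stalled replication forks, stood at 4.71 and 5.59, a fold of 0.88 (SE 0.31, FDR 0.0447). All 3 peaks were called in 4 of 4 libraries of both groups.

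None of the member peaks of SWI/SNF subunits was called in that comparison. These 6 peaks had folds of 0.57 to 1.03, beside a median of 0.71 for all promoter peaks. Smarca4 stood at 3.50 and 4.07 in the authors' deposited table, a fold of 0.57 (SE 0.37, FDR 0.203). The scaffold subunits Smarcc1 and Smarcc2 had folds of 1.03 (SE 0.47) and 0.87 (SE 0.54), both listed with an FDR of 1. Their peaks were found in 0 of 4 control libraries, and in 2 of 4 and 3 of 4 KO-labelled libraries. Smarcd2 stood at 3.03 and 4.04, a fold of 1.01 (SE 0.41, FDR 0.0624), and the peak was found in 0 of 4 and 4 of 4 libraries. The peaks of Smarcc1, Smarcc2 and Smarcd2 were thus listed through KO-labelled libraries alone, where they stood higher. The 3 INO80 peaks ran from 0.40 at Ino80c to 0.96 at Ino80, the ATPase of that complex, where the FDR was 0.0697. In the CHD family 12 of the 13 peaks were not called, and the highest fold, 1.26 at Chd4, the ATPase of the NuRD complex, had an SE of 0.53 and an FDR of 1.

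In the authors' deposited table Arid4b had 2 called peaks, the promoter (chr13:14063307-14063907) at 6.55 and 7.50 (fold 0.95, SE 0.32, FDR 0.0378) and intron 3 (chr13:14113985-14114585) at 4.76 and 5.71 (fold 0.95, SE 0.33, FDR 0.0396). The promoter was the strongest member peak of the table, and it covers the start of Ggps1 too. The remaining ARID peaks were not called, with folds of 0.20 at Arid5b intron 4, 0.60 at Arid5a, 0.72 at a second Arid4b promoter peak, 0.84 at Arid3b and 1.13 at Arid5b intron 8.

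Of the acetyltransferases, Kat6b (promoter, chr14:21500437-21501037), the catalytic subunit of a complex that acetylates histone H3, was called at 5.19 and 6.13 in the authors' deposited table (fold 0.94, SE 0.33, FDR 0.0413). Its paralog Kat6a stood at 3.34 and 3.94 (fold 0.60, SE 0.41, FDR 0.217), and Kat7 at 3.48 and 4.27 (fold 0.79, SE 0.39, FDR 0.102). The ING readers had 0 of 5 peaks called, at 0.40 to 1.00. Brd2, a bromodomain protein that binds acetylated histones, had its single listed peak at 3.29 and 4.04 (fold 0.74, SE 0.43, FDR 0.156).

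Of the deacetylases, 1 of 9 peaks was called. It was the Hdac4 peak over the RefSeq start (chr1:92180240-92180840), at 5.03 and 5.94 in the authors' deposited table (fold 0.91, SE 0.33, FDR 0.0471). A further Hdac4 peak, annotated as distal, stood at 3.44 and 3.22 (fold -0.22, SE 0.50). Hdac2, a catalytic subunit of the NuRD, SIN3 and CoREST complexes, had 0.72 at its promoter (SE 0.32, FDR 0.0805). Sirt1, an NAD-dependent deacetylase, was called with its single peak, a promoter peak (chr10:63338658-63339258), at 3.59 and 4.62 (fold 1.03, SE 0.35, FDR 0.0405).

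Of 9 peaks of KMT and SETD genes, Setd6 (promoter, chr8:95715590-95716190), which methylates the NF-kB subunit RelA, was called. It stood at 3.30 and 4.55 in the authors' deposited table, with a fold of 1.25 (SE 0.38, FDR 0.0311), the highest among the 11 called members and a linear ratio of 2.38. Kmt5b, a paralog of Kmt5c, had the lowest fold of the family, 0.17 (SE 0.49), and Kmt5c had 0.64 (SE 0.34, FDR 0.126). Kmt5a, which places the first methyl group on the same histone H4 lysine, stood at 2.60 and 3.75 (fold 1.15, SE 0.48), and Setd2, which trimethylates histone H3 in transcribed genes, at 2.82 and 3.90 (fold 1.08, SE 0.44). Both are listed with an FDR of 1, the value the table gives to many weak peaks. Ezh2, the catalytic subunit of Polycomb repressive complex PRC2, had 0.81 (SE 0.33, FDR 0.0643).

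Of the demethylases, 2 of 13 peaks were called. Kdm4d (promoter, chr9:14500236-14500836), which acts on histone H3, stood at 4.92 and 5.84 in the authors' deposited table (fold 0.92, SE 0.33, FDR 0.0436), in a peak that also covers the start of Cwc15. Kdm6a (promoter, chrX:18162173-18162773), the X-linked enzyme that removes the Polycomb mark, stood at 4.57 and 5.52 (fold 0.95, SE 0.35, FDR 0.0492). Just outside the threshold lay Kdm8 at 3.50 and 4.48 (fold 0.98, SE 0.37, FDR 0.0505) and Kdm5c at 2.87 and 3.98 (fold 1.12, SE 0.43, FDR 0.0520). Kdm6b had 0.65 (SE 0.52). None of the 5 peaks of DNA methyltransferases and TET enzymes was called. Their folds ran from 0.23 at Dnmt3a, the de novo methyltransferase, to 1.01 at Tet1, with 0.69 at the maintenance enzyme Dnmt1.

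Most of the called members stood close to the threshold. Of the 11, 10 had an FDR between 0.03 and 0.05, and 10 more members had one above 0.05 and up to 0.07. The share of all peaks in these ranges is not given here. With the listed p-values adjusted by the Benjamini-Hochberg method over all peaks of the table, 3 members passed, Chd1, Smarca5 and Setd6. These are 3 of 83 member peaks, beside 541 of all 13111 peaks and 482 of all 8050 promoter peaks that passed as gained. The 4 members below 0 were the Kat2b intron 1 and 1 to 2 kb promoter peaks and the distal peaks of Hdac4 and Hdac9, and none of them passed.

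Complexes in which the members work were described by 159 partner genes in 8 lists, of which 84 had a peak after PPx. By the authors' deposited FDR, 10 of their 110 peaks were gained, or 9.09% beside 9.89% of all peaks, with a median fold of 0.64, and 0 were lost. The acetyltransferase list gave 2 of 24, at the promoters of Hat1 (1.47, FDR 0.0265) and Epc1 (1.29, FDR 0.0268). The Polycomb list gave 2 of 21, at Phc1 (1.08, FDR 0.0396) and Rybp (0.96, FDR 0.0471). The other 6 lists gave 1 each: the methylated-DNA reader Mbd1 (1.11, FDR 0.0270) of 6, the NuRD subunit Gatad2a (0.96, FDR 0.0387) of 9, the COMPASS partner Psip1 (1.07, FDR 0.0396) of 7, the arginine methyltransferase Prmt9 (0.95, FDR 0.0420) of 17, the ISWI partner Baz2b (1.22, FDR 0.0471) of 14, and the Arid1a exon 9 peak among 12 peaks of SWI/SNF subunits outside the members. Before PPx that Arid1a peak was called and the other 72 of 73 partner peaks were not.

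PPx in control islets asks how regrowth alters open chromatin when Arid1a is kept. None of the 58 member peaks was called, and 0% of all 8070 peaks were. The lowest FDR was 0.999 for a member and 0.619 in all, while 2 members and 204 of all peaks had an unadjusted p below 0.05. Member folds, as after minus before, had a median of 0.125, beside 0.16 over all peaks, and 42 of 58 were above 0. Of the partner genes, 0 of 70 peaks were called.

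Both member peaks with p below 0.05 belonged to Kat2b, which encodes the acetyltransferase PCAF. The peak 1 to 2 kb from a start stood in the authors' deposited table at 2.96 before and 4.12 after the operation (fold 1.17, SE 0.45, p = 0.00892), and the nearer promoter peak at 2.66 and 3.62 (fold 0.96, SE 0.47, p = 0.0402). The remaining Kat2b peak, in intron 1, stood at 3.34 and 3.77 (fold 0.43, SE 0.44). Each had an FDR of 0.999. The lowest member folds were -0.49 at Chd6, -0.48 at Ino80 and -0.38 at Kdm8, none with a p below 0.05. Smarca5 stood at 4.90 in both states.

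PPx in KO-labelled islets asks the same where TRE-Cre was present. The authors' deposited table called 7 of 84 member peaks gained, or 8.33%, beside 7.45% of all peaks, and 0 lost, as were 0% of all peaks. The median fold was 0.875 for members and 0.83 for all peaks, and 81 of the 84 members (96.4%) were above 0, beside 97.1% of all peaks. Some of these peaks were listed through libraries after PPx alone, where they stood higher, so these values are partly set by the listing. Of the member promoters 7.81% were called, beside 9.74% of all promoters. With each fold centred on the table median, 0 members passed. With Benjamini-Hochberg adjustment of the listed p-values over all peaks, 5 members passed: Setd6, Kmt5c, Arid4b intron 3 and Kdm5c, which the authors' FDR also called, and Tet1, which it did not. Of all 12767 peaks, 573 passed as gained by that adjustment. The members' count is close to the background here as well.

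The 7 called peaks spanned 5 families. In the authors' deposited table Setd6 stood at 2.89 before and at 4.55 after PPx (fold 1.66, SE 0.46, FDR 0.0282), and Kmt5c (promoter, chr7:4739569-4740169) at 5.81 and 6.96 (fold 1.15, SE 0.34, FDR 0.0343). Kdm5c (promoter, chrX:152232575-152233175), an X-linked demethylase, stood at 2.31 and 3.98 (fold 1.67, SE 0.54, FDR 0.0410). Hdac6 (promoter, chrX:7947681-7948281), the cytoplasmic deacetylase of tubulin, stood at 3.51 and 4.77 (fold 1.26, SE 0.41, FDR 0.0423), and the Hdac4 start peak at 4.85 and 5.94 (fold 1.09, SE 0.38, FDR 0.0481). Arid4b intron 3 stood at 4.44 and 5.69 (fold 1.26, SE 0.39, FDR 0.0386), and Smarcal1 at 4.58 and 5.58 (fold 1.01, SE 0.36, FDR 0.0491). The Setd6 peak was called in 0 of 3 libraries before PPx and 3 of 4 after it, and so was listed through the latter alone. Kmt5c, Hdac4, Hdac6, Smarcal1 and Arid4b were called in all libraries of both groups.

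Larger folds stood at weak peaks that the authors' FDR did not call. Tet1, which oxidises methylated cytosine, stood at 1.22 and 3.55 in the authors' deposited table, a fold of 2.33 (SE 0.68, p = 0.000576, FDR 1), and was found as a peak in 0 of 3 and 3 of 4 libraries. It was thus listed through libraries after PPx alone, where it stood higher. The centre of this peak lay at 21850 bp from the RefSeq start of Tet1. Arid5b intron 8 stood at 1.38 and 3.47, a fold of 2.09 (SE 0.69, FDR 1). Kmt5a stood at 2.06 and 3.75 (fold 1.69, SE 0.62, FDR 0.0525). The peaks of Arid5b intron 8 and Kmt5a were found in 0 of 3 libraries before PPx, and so were also listed through the later libraries alone. The members below 0 were Kat2b intron 1 at -0.21, Smarce1-ps1 at -0.04 and Smarcb1, a core SWI/SNF subunit, at -0.01. Hdac1, a paralog of Hdac2, stood at 2.10 and 2.48 (fold 0.38, SE 0.73). Of the partner genes, 13 of 111 peaks were gained in this table, or 11.7% beside 7.45% of all peaks, among them Hat1 (1.80, FDR 0.0282), Brpf1 (1.20, FDR 0.0312), Mta2 (1.50, FDR 0.0386) and Uhrf1 (1.66, FDR 0.0484). A leukocyte marker peak, of Csf1r, was gained too, at 2.02 and 4.03 (FDR 0.0282), while the second listed leukocyte marker, Ptprc, stood at 3.27 and 3.50 (FDR 0.697). Among 11 peaks of beta cell markers 1 was gained (FDR 0.0484), or 9.09%.

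The comparison of genotypes after PPx and that of PPx in KO-labelled islets share the 4 KO-labelled libraries taken after PPx, so their calls are given side by side and not as support for each other. Setd6 had folds of 1.25 and 1.66 in that order, Arid4b intron 3 0.95 and 1.26, the Hdac4 start peak 0.91 and 1.09, and Smarcal1 0.88 and 1.01. These 4 peaks were called in both tables. Chd1 was called in the first alone, with 1.08 and 0.72, as was Smarca5, with 0.95 and 0.78. Kmt5c was called in the second alone, with 0.64 and 1.15. Of the 89 sites, 23 were listed in just these 2 tables, and 3 more were listed in that of PPx in KO-labelled islets alone. These 2 comparisons list more peaks of all genes, 13111 and 12767, beside 7826 for genotype before PPx and 8070 for PPx in control islets. The share of all sites listed just there is not given here, so the 23 are not read as a trait of the members.

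Whether the effect of genotype differed between the states was tested on the 2 comparisons of genotype, which share no library. At 55 member peaks matched between them, the fold after PPx minus that before had a median of 0.75, beside 0.64 over 7504 matched peaks. A two-sided z test of each difference, with Benjamini-Hochberg adjustment over all matched peaks, called 0 of the 55 members and 2 of 7504 peaks (0.0267%). The lowest adjusted p of a member was 0.303, and 10 members had an unadjusted p below 0.05, or 18.2% beside 14.5% of all matched peaks. Of the 11 member peaks called after PPx, 10 were in this test and none of these passed, so a different response to genotype in the 2 states was not shown for them. Setd6 had no listed peak before PPx and was not tested.

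The smallest p belonged to Kdm5a, with folds of -0.96 before and 0.73 after PPx, a difference of 1.69 (SE 0.60). Kdm8 followed with -0.54 and 0.98, a difference of 1.52 (SE 0.56), and Chd7 intron 1 with -0.77 and 0.61, a difference of 1.38 (SE 0.56). All 10 had the higher fold after PPx, as did 52 of the 55 members and 92.2% of all matched peaks. Kat2b intron 1 went the other way, with folds of -0.11 and -0.70.

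**Figure D3:**
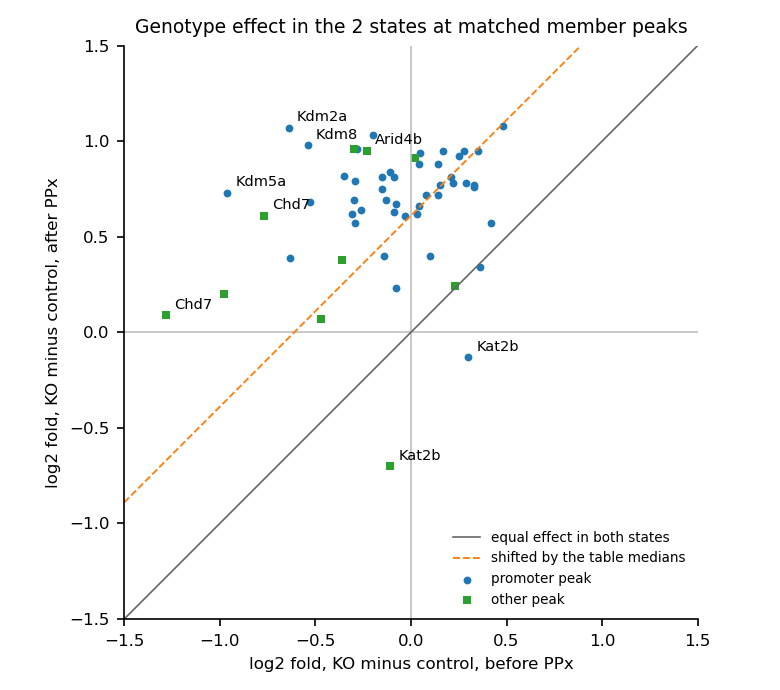
Log2 fold of KO-labelled minus control islets before PPx (x axis) against after PPx (y axis) at the 55 matched member peaks. Circles are promoter peaks and squares other peaks, the solid line is an equal effect in both states and the dashed line adds the difference of the medians of all peaks. The 2 named Kat2b peaks lie below 0 after PPx, and Kdm5a, Kdm8, Kdm2a and Chd7 lie to the left with folds below 0 before PPx.

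The sites of a single gene could be compared for a few members. Of the 71 genes 60 had 1 site, 7 had 2, and Chd7, Arid4b, Hdac9 and Kat2b had 3 or more. Chd7 had 6 sites, of which the promoter and intron 1 had folds of 0.81 (SE 0.40) and 0.61 (SE 0.37) after PPx in the authors' deposited table of genotype. Its exons 13, 24 and 29 had 0.07 (SE 0.45), 0.09 (SE 0.37) and 0.22 (SE 0.41), with 0.57 (SE 0.45) in intron 3. Intervals of 1 SE around these folds overlap, and the difference between sites was not tested. In KO-labelled islets the exon 24 peak stood at 3.05 before and 4.22 after PPx (fold 1.17, SE 0.51, FDR 0.0781).

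The 3 Arid4b sites, in order along the gene, had folds of 0.28, 0.08 and -0.23 in the comparison of genotype before PPx and of 0.95, 0.72 and 0.95 after it. Across PPx they had 0.22, 0.35 and 0.08 in control islets and 0.87, 1.01 and 1.26 in KO-labelled islets. In the comparison of genotype after PPx, Kat2b showed the widest spread of folds among the genes with several sites. It had -0.70 (SE 0.44) in intron 1, -0.13 (SE 0.44) at the peak 1 to 2 kb from a start and 0.82 (SE 0.77) at the nearer promoter peak. In the same comparison Hdac9 had -0.21 (SE 0.50) at a distal peak, 0.74 (SE 0.48) at the promoter and 0.96 (SE 0.43) in intron 2. With SEs of this size none of these sites was called in any of the 4 tables, except the Arid4b promoter and intron 3.

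**Figure D4:**
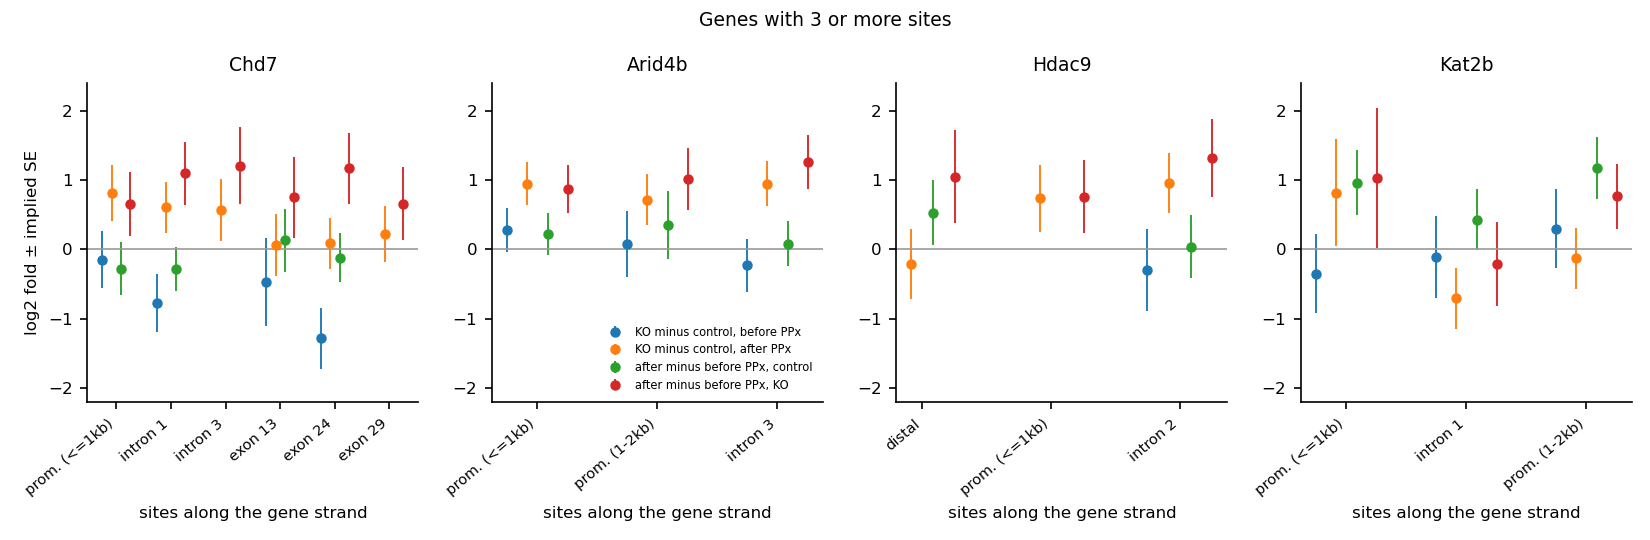
Log2 fold with the implied SE at each site of the 4 genes with 3 or more sites, one colour per comparison, with sites placed along the gene strand. At Chd7 exon 24 the fold of genotype is -1.28 before and 0.09 after PPx, and at Kat2b the site 1 to 2 kb from a start has 1.17 for PPx in control islets.

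Across the member peaks of a table, Pearson's r of fold and mean concentration was 0.47 (Spearman's rho 0.44) over the 58 peaks before PPx, where weak peaks had the lower folds, and 0.11 over the 83 peaks of genotype after PPx. It was -0.02 in control islets and -0.05 in KO-labelled islets across PPx. These are correlations across peaks of the same libraries, which are not independent replicates, and the values are descriptions.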

How the data were processed

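ATAC-seq of mouse islets was read from 4 tables, 1 per comparison. Per the submitters' processing notes, the tools were cutadapt, BWA, MACS, DiffBind and ChIPseeker on mm10, with no versions or settings given. The authors deposited concentrations as log2 normalised reads averaged over each group and folds as log2 differences. The deposited tables also give a p-value and an FDR per peak, from a test not named in the file headers. Per the file headers, counts of libraries in which a peak was called stand beside each peak, and each listed peak was called in at least 2 libraries. How libraries were scaled to each other is not given in these sources.

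Full duplicate rows were dropped (1197, 5281, 1337 and 4588) and the sign of each fold was turned, so that it reads KO-labelled against control or after against before PPx. Peaks at the authors' FDR of 0.05 or below were called, over the whole table. In the 2 tables with KO-labelled libraries after PPx the FDR is not a plain Benjamini-Hochberg adjustment of the listed p-values. An SE is the fold divided by the normal quantile of p, or, where the fold was under 0.1 or p at least 0.95, the median of 1 of 40 bins of concentration. The z test across states was also run on folds simulated around 0 from a normal distribution with the implied SE. That run held no table-wide offset and cannot check the SE or the normal assumption. With 3 or 4 mice per group, and no library values, a leave-one-out check could not be run. Promoters and gene starts are RefSeq, GRCm38.p6. Python 3.11.15, pandas 2.3.3, numpy 2.4.6, scipy 1.17.1 and matplotlib 3.10.9 were used.

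The members and lists were chosen with earlier results of these data known. The rule for named genes takes every called member, the highest and lowest fold per family after PPx, all members outside promoters, the 5 strongest and 5 weakest per table, the 3 smallest p of the difference between states, and genes below 0 after PPx. Called partner genes are named up to 3 per list. Other genes named were chosen after their values were seen. Alternatives were other FDR thresholds, Benjamini-Hochberg over the listed p-values, centring, 1 peak per gene, promoters alone, repeated rows kept, other bins and other ways of matching peaks.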

Additional observations from a re-analysis of the deposited data

How the results depend on the processing

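The 11 gained member peaks of genotype after PPx became 0 at an FDR of 0.01, 26 at 0.1, 3 with Benjamini-Hochberg over the listed p-values and 0 with folds centred on the table median. The 7 of PPx in KO-labelled islets became 0 at 0.01, 34 at 0.1, 0 with centring and 5 with Benjamini-Hochberg, where Hdac4, Hdac6 and Smarcal1 no longer passed and Tet1 did. Over all peaks, Benjamini-Hochberg left 541 of 13111 gained for genotype after PPx and 573 of 12767 for PPx in KO-labelled islets. With 1 peak per gene, promoters alone or repeated rows kept, the counts were 9 to 12 and 5 to 8. For these counts and those at 0.01 and 0.1 no share of all peaks is given here, so they are not read as a trait of the members. The lowest FDR of any promoter peak was 0.00701 for genotype after PPx and 0.0077 for PPx in KO-labelled islets. The comparisons with 0 calls kept 0 in every alternative run, and the difference between states kept 0 in 5 alternatives, with a lowest adjusted p of 0.229 to 1.000; 1 of these, from the 2 PPx tables, was chosen after seeing the data. Centring turned the sign of 26 of 120 named peaks, because it subtracts the table median. For genotype after PPx these were Arid5b (-0.41), Chd7 (-0.04, -0.54, -0.52 and -0.39), Chd8 (-0.23), Dnmt3a (-0.38), Ing5 (-0.21), Ino80c (-0.21), Kdm1b (-0.22), Kmt5b (-0.44), Smarca4 (-0.04), Smarce1-ps1 (-0.37) and Tet2 (-0.04). For PPx in KO-labelled islets they were Chd7 (-0.08 and -0.17), Hdac1 (-0.45), Hdac2 (-0.46), Hdac4 (-0.51), Ing2 (-0.22), Ing3 (-0.27) and Kdm4b (-0.16), and in control islets Arid4b (-0.08), Chd7 (-0.03), Hdac9 (-0.12) and Ing3 (-0.03). No paired analysis was possible because the tables hold group means. Depth per library is unknown, so no floor or counting interval is given.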
